A study of Mus musculus with 48 samples.

Results

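The colon epithelium of 12 week old mice labelled Il10-/- was compared with that of 6 week old mice of the same label. These 2 groups of 6 mice make up 12 of the 48 arrays of the series, and were chosen by their labels for tissue, strain and age. The other arrays hold epithelium of C57BL/6J mice at the same ages and intact colon of all 4 groups of mice, and are used here only where they show how the epithelial change differed.

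All mice were males. The Il10-/- mice carried the targeted *Il10tm1Cgn* allele on a C57BL/6J background, and the control mice were wild type C57BL/6J animals from a separate colony. Mice of both strains and both ages were given, at about the same young age, an oral inoculum of intestinal bacteria that combined Enterococcus strains with conventional gut microbiota, and were fed the AIN-76A diet under conventional housing. The 6 week old mice were killed within days of this inoculation and the 12 week old mice weeks later, with colitis. Age, time since inoculation and colitis therefore cannot be told apart in the comparison of the 2 groups. RNA came from epithelium cut by laser from frozen sections of the proximal colon and was amplified over 2 rounds before labelling. According to the methods lamina propria was kept out of the cut as far as possible. In the 1 example section pictured at 6 weeks the lamina propria was cut along with the epithelium, and the legend describes it as mostly connective tissue in non-inflamed mice. The 1 section pictured at 12 weeks has a crypt outlined. Whether the cut differed between the ages in other sections is not known here. Each epithelial RNA was labelled with Cy3 and hybridized against a Cy5-labelled pool of mouse RNA, and every level below is the log2 ratio of sample over that pool. A positive level is not a high level of a gene in itself, only a level above the pool's.

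Interleukin-10 is a cytokine of T cells and macrophages that restrains inflammatory responses to gut bacteria, and mice without it develop colitis when they carry a normal microbiota. The colon epithelium absorbs water, salt and short chain fatty acids, makes mucus, and detoxifies compounds from the lumen. In inflamed mucosa it also responds to interferons and bacterial products with antimicrobial proteins, chemokines and antigen presentation molecules, while leukocytes enter the lamina propria and the epithelium.

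The 2 groups did not differ detectably in signal. The image software found 27.0% to 38.5% of sample spots well above background at 12 weeks (median 31.2%) and 26.5% to 35.2% at 6 weeks (median 30.0%), a mean difference of 1.59 percentage points (exact permutation test, two-sided, p = 0.455, smallest possible p = 0.00216). A typical spot lay near the level of spots without a target, so ratios of dim genes are compressed towards 0, and the number of arrays limits the precision. The C57BL/6J array of replicate 1 at 6 weeks had only 12.4% of spots above background. It enters the Il10-/- age comparison through the shared estimate of spread alone (418 genes called without it), but is part of the group mean in every C57BL/6J change and strain difference below. Among the Il10-/- arrays at 6 weeks, replicates 3 and 4 were separate from the other 4 on the first 2 principal components (25.7% and 21.7% of variance), and 371 genes were called without them. Each slide carried the same replicate number of both groups, and the slide of replicate 6 was scanned on another day than the other 5. The *Il10* probe exceeded background on 0 of 6 arrays at 12 weeks and on 1 of 6 at 6 weeks, so it does not check the labels of the epithelial arrays. In intact colon it was higher in mice labelled Il10-/-, from 0.88 to 1.51 at 6 weeks and 1.19 to 1.80 at 12 weeks, than in C57BL/6J mice, in which no array passed 0.37. Where the probe lies relative to the altered part of the gene was not established here, and mice are named by their labels throughout.

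Of 27436 genes tested, 350 (1.28%) were differentially expressed between 12 and 6 weeks, at a fold change above 1.5 and a false discovery rate (FDR) below 0.05 in limma. Expression was higher at 12 weeks for 283 genes (1.03%) and lower for 67 (0.244%). These shares over all genes are the background of every list count below. The change exceeded 2-fold for 229 genes, 4-fold for 48 and 8-fold for 12, whereas the median log2 fold change of all genes was -0.01 (quartiles -0.08 and 0.05). The 6 arrays of one age did not overlap those of the other for 262 of the 371 called probes (70.6%), against 1.04% of all probes. Within slides, 280 of the 302 probes called higher were higher at 12 weeks on all 6 slides, and 66 of the 69 called lower were lower on all 6. The probes were called on these same arrays, so the lack of overlap and the agreement across slides follow largely from the call. Neither is separate support for it. The smallest log2 change called was 0.59 and the largest adjusted p was 0.0497, and 14 probes past the fold threshold fell just outside with an adjusted p between 0.05 and 0.06. For 77 of the 302 called probes that were higher at 12 weeks, no 6 week array lay well above background, and the fold change of such a gene is given only as a lower bound. In bulk RNA of this kind, more cells of a type and more RNA per cell cannot be told apart.

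**Figure D1:**
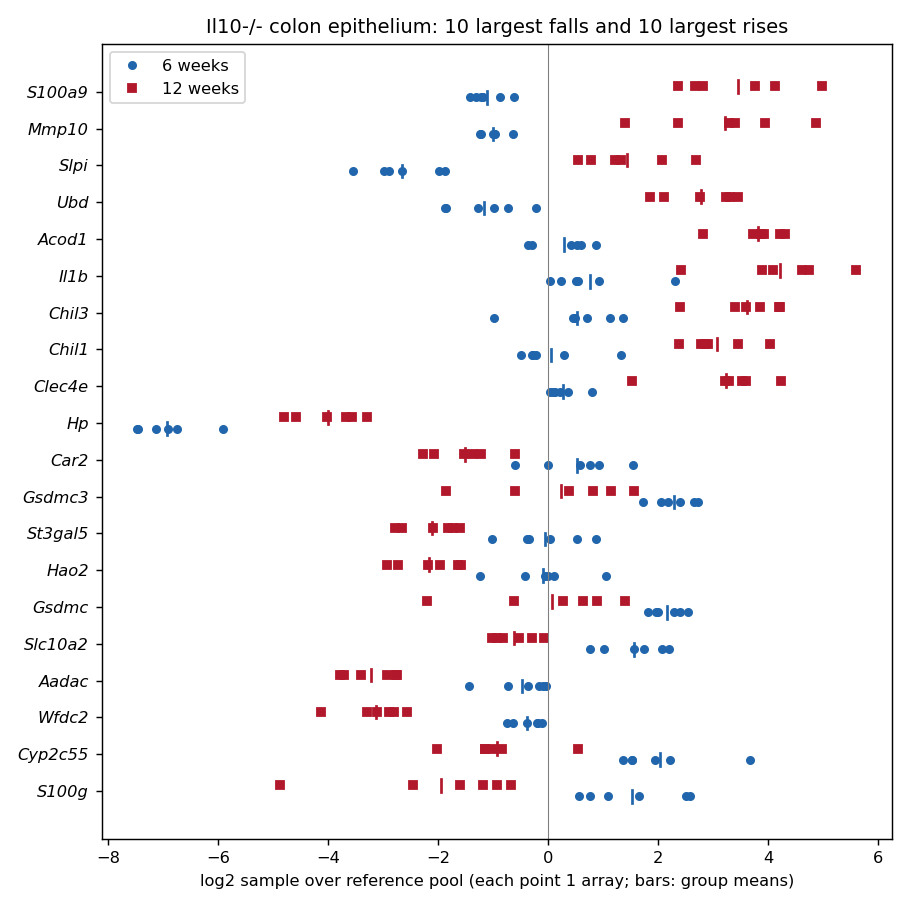
Levels of the 10 genes with the largest falls and the 10 with the largest rises among called genes with no overlap between the ages, as log2 sample over reference pool on the x axis. Each point is 1 array (circles, 6 weeks; squares, 12 weeks) and vertical bars are group means, and the groups are apart for every gene shown, from *S100a9* at the top (2.36 to 4.97 against -1.43 to -0.63) to *S100g* at the bottom (-4.88 to -0.67 against 0.56 to 2.57).

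The largest fitted rise was that of *S100a9*, which forms the antimicrobial protein calprotectin with *S100a8* and is abundant in neutrophils. Its level on the 6 arrays at 12 weeks was 2.36 at the lowest, 3.29 at the median and 4.97 at the highest, against -1.43, -1.21 and -0.63 at 6 weeks. Every 12 week old mouse was thus above every 6 week old mouse, with a log2 fold change of 4.56 (23.6-fold, standard error 0.44, adjusted p = 4.0e-06 in limma). Only 2 of 6 arrays were well above background at 6 weeks, so this size is less certain than the direction. The probe lies at chr3:90822865-90822924 of mm7. *S100a8* had levels of 1.11, 1.72 and 3.57 at 12 weeks and -0.46, -0.39 and -0.07 at 6 weeks, when no array was well above background, and was at least 4.02-fold higher at 12 weeks (adjusted p = 5.3e-05). The probes of the pair match at 18 of 55 aligned bases at best.

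*Slpi*, a secreted inhibitor of neutrophil proteases with antimicrobial activity, showed the largest rise among genes well above background on all 12 arrays. Its levels were 0.54, 1.27 and 2.69 (lowest, median and highest) at 12 weeks and -3.55, -2.78 and -1.89 at 6 weeks (log2 fold change 4.10, 17.1-fold, standard error 0.41, adjusted p = 5.8e-06; chr2:164095003-164095062 of mm7). A second, dim probe of the gene had a change of 0.07. Among the 34 measured genes of the antimicrobial and alarmin list, 6 rose and 1 fell, and the median log2 change was 0.38. *Lcn2*, which binds bacterial siderophores, and *Nod2*, a sensor of bacterial cell wall fragments, rose as well, although *Lcn2* was above background on only 2 of the 12 arrays. *Chil1*, a chitinase-like protein of epithelial cells and macrophages, went from -0.49, -0.26 and 1.31 at 6 weeks to 2.38, 2.87 and 4.04 at 12 weeks (log2 fold change 3.01, adjusted p = 1.2e-06), with 1 of 6 arrays above background at 6 weeks. *Wfdc2*, an epithelial protein with the same kind of protease inhibitor domain as *Slpi*, was the member that fell, from -0.75, -0.29 and -0.12 to -4.13, -3.01 and -2.57 (log2 fold change -2.76, 6.76-fold, adjusted p = 0.00014).

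*Reg3b* and *Reg3g*, antibacterial lectins of the epithelium, were not called. Levels of *Reg3b* were -3.72, -1.24 and 0.33 at 6 weeks and -1.25, -0.77 and -0.28 at 12 weeks, so the 12 week arrays lay within the wide range of the 6 week arrays (log2 fold change 0.61, standard error 1.25). *Duox2* and *Duoxa2*, the epithelial hydrogen peroxide generating enzyme and its maturation factor, were also already at 1.61 to 3.23 and 1.5 to 3.38 at 6 weeks, against 2.16 to 3.41 and 2.55 to 3.38 at 12 weeks.

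The other leading rises included inflammatory mediators of phagocytes and epithelium. *Acod1*, which makes the antimicrobial metabolite itaconate, had the smallest p of the named genes. Its levels were 2.81, 3.89 and 4.30 at 12 weeks and -0.37, 0.47 and 0.87 at 6 weeks (log2 fold change 3.52, 11.4-fold, standard error 0.23, adjusted p = 1.6e-08). The proinflammatory cytokine gene *Il1b* was measured on all arrays, at 2.40, 4.35 and 5.60 against 0.03, 0.52 and 2.30 (log2 fold change 3.46, 11.0-fold, adjusted p = 0.00015). The highest 6 week array and the lowest 12 week array nearly touched for this gene. *Chil3*, a chitinase-like product of macrophages and neutrophils, rose 8.5-fold (adjusted p = 0.00027). Haptoglobin, the haemoglobin scavenger encoded by *Hp*, and *Clec4e*, a C-type lectin that recognises mycobacterial and damaged-cell glycolipids, were above background on all 6 arrays at 12 weeks and on none at 6 weeks. They were at least 6.37-fold and at least 5.67-fold higher at 12 weeks (adjusted p = 0.00038 and 2.6e-06).

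The matrix metalloproteinase list, whose members degrade extracellular matrix, held 21 measured genes, of which 3 rose and none fell (median log2 change 0.19). *Mmp10* (stromelysin-2; chr9:7508134-7508193 of mm7) had levels of 1.39, 3.33 and 4.86 at 12 weeks and -1.24, -1.0 and -0.64 at 6 weeks. As no 6 week array was above background, it was at least 13.8-fold higher at 12 weeks (adjusted p = 1.1e-05). *Mmp3* (stromelysin-1) was the most uneven of the named rises, at 0.31, 2.17 and 5.44 at 12 weeks, with replicate 6 the highest, against -0.19, -0.17 and 0.01 at 6 weeks. It was at least 4.69-fold higher (adjusted p = 0.014), a call lost with only the Il10-/- arrays fitted and without 6 week replicates 3 and 4. *Adam8*, a membrane protease of leukocytes, had a log2 fold change of 1.1 (adjusted p = 0.021), and this call was lost without any one of 5 of the 12 arrays. In the growth factor and wound repair list, 2 of 30 members rose, against 1.03% of all genes. They were the cornified envelope gene *Sprr2h* (log2 fold change 2.08, adjusted p = 0.00020, 1 of 6 arrays above background at 6 weeks) and the annexin gene *Anxa3* (1.14, adjusted p = 0.020, lost without any one of 4 arrays).

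*S100g* fell most. It encodes calbindin-D9k, the cytosolic calcium carrier of absorptive cells and a target of vitamin D. Its levels were 0.56, 1.36 and 2.57 at 6 weeks and -4.88, -1.40 and -0.67 at 12 weeks (log2 fold change -3.48, 11.1-fold, standard error 0.58, adjusted p = 0.0019; chrX:157736462-157736521 of mm7). All 12 arrays were above background, the groups did not overlap, and replicate 5 at 12 weeks was the lowest by a wide margin. The vitamin D and mineral handling list had 1 other member that fell among 19 measured, the manganese exporter gene *Slc30a10*, which was above background on 2 of 6 arrays at 6 weeks and on none at 12 weeks (at least 1.53-fold lower, adjusted p = 0.018, lost without any one of 4 arrays). The vitamin D receptor gene *Vdr* had levels of -0.71 to 0.04 at 6 weeks and -0.73 to -0.29 at 12 weeks.

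Among 31 measured genes of absorptive colonocytes and ion transport, 5 fell (2 with processed signals), none rose and 26 did not pass the test. The median log2 change of the list was -0.44. The mean level of the list did not overlap between the ages, at -0.65 to -0.23 at 12 weeks and -0.05 to 0.39 at 6 weeks. *Car2*, a cytosolic carbonic anhydrase, had levels of -0.60, 0.66 and 1.54 at 6 weeks and -2.27, -1.45 and -0.61 at 12 weeks (log2 fold change -2.04, adjusted p = 0.024), but this call was lost without any one of 6 arrays. *Slc9a3*, the apical sodium/proton exchanger, went from -0.53, 0.19 and 0.78 to -1.98, -1.70 and -0.29 (log2 fold change -1.53, adjusted p = 0.0055). Its groups overlapped at their ends, and the call was lost with processed signals and on slides of one scan day. *Fabp2*, the intestinal fatty acid binding protein gene, had levels of -3.76, -3.33 and -2.86 at 6 weeks and -5.38, -4.91 and -4.31 at 12 weeks (log2 fold change -1.56, adjusted p = 0.00048). The water channel gene *Aqp8* fell by 1.41 on the log2 scale (adjusted p = 0.046). *Cldn8*, a sealing claudin, was the only member of 25 keratin and junction genes that was called, with a log2 fold change of -1.27 (adjusted p = 0.0092). Its groups overlapped, 2 of 6 arrays were above background at 12 weeks, and the call was lost with processed signals, with only the Il10-/- arrays fitted and on slides of one scan day.

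Enzymes that process drugs, steroids and luminal compounds gave the longest list of falls. Of 44 measured genes for xenobiotic and drug handling, 7 fell and none rose, with a median log2 change of -0.37, and the mean level of the list was -1.67 to -1.29 at 12 weeks against -1.0 to -0.46 at 6 weeks. *Cyp2c55*, a colonic cytochrome P450, went from 1.36, 1.73 and 3.67 to -2.02, -1.08 and 0.53 (log2 fold change -2.97, 7.86-fold, standard error 0.58, adjusted p = 0.0075; chr19:38807081-38807140 of mm7). *Ugt2b5*, a glucuronosyltransferase, went from -2.28, -1.51 and -1.26 to -3.85, -3.45 and -2.80 (log2 fold change -1.75, adjusted p = 3.2e-05). *Maob*, a monoamine oxidase, and *Sult1c2*, a sulfotransferase, fell by 1.70 and 1.64 on the log2 scale (adjusted p = 0.014 and 0.0025), with 2 and 3 of 6 arrays above background at 12 weeks. The call of *Maob* was lost with only the Il10-/- arrays fitted and on slides of one scan day. The other members that fell were the carboxylesterase *Ces1f*, the retinal dehydrogenase *Aldh1a1* and the steroid dehydrogenase *Hsd17b2*. Outside this list, *Aadac*, an esterase of the endoplasmic reticulum, went from -1.44, -0.27 and -0.03 to -3.78, -3.17 and -2.75 (log2 fold change -2.76, 6.75-fold, standard error 0.24, adjusted p = 1.3e-06).

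Both genes called in the bile acid and cholesterol list of 27 carry bile acids across the epithelium. *Slc10a2*, the apical bile acid transporter, had levels of 0.75, 1.65 and 2.20 at 6 weeks and -1.03, -0.68 and -0.08 at 12 weeks (log2 fold change -2.17, 4.50-fold, adjusted p = 0.00031; chr8:5053054-5053113 of mm7). *Slc51a*, a subunit of the basolateral exporter, fell by 1.31 (adjusted p = 0.0028). Of the *Slc10a2* probes, 1 of 3 was called. In the list of fatty acid oxidation and PPAR targets, 1 of 32 genes rose and 1 fell. The riser was *Angptl4*, an inhibitor of lipoprotein lipase, at -4.09, -3.52 and -2.41 at 6 weeks and -1.99, -1.56 and -1.11 at 12 weeks (log2 fold change 1.77, adjusted p = 0.0095), and the other was *Fabp2*. *Ppara* itself was above background on 1 of 6 arrays at each age and was not called (log2 fold change -0.26), but was called lower with processed signals (-1.31, adjusted p = 0.043).

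Other leading falls were *Hao2*, a peroxisomal hydroxy acid oxidase (log2 fold change -2.08, adjusted p = 0.00072), and *St3gal5*, the synthase of the ganglioside GM3 (-2.06, adjusted p = 0.00085). The gasdermin genes *Gsdmc* and *Gsdmc3* had nearly the same values, with log2 fold changes of -2.10 and -2.05 (adjusted p = 0.0085 and 0.0092). Their probes match at 36 of 41 aligned bases, so the 2 readings may come from the same transcripts. Both calls were lost with only the Il10-/- arrays fitted and without 6 week replicates 3 and 4.

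**Figure D2:**
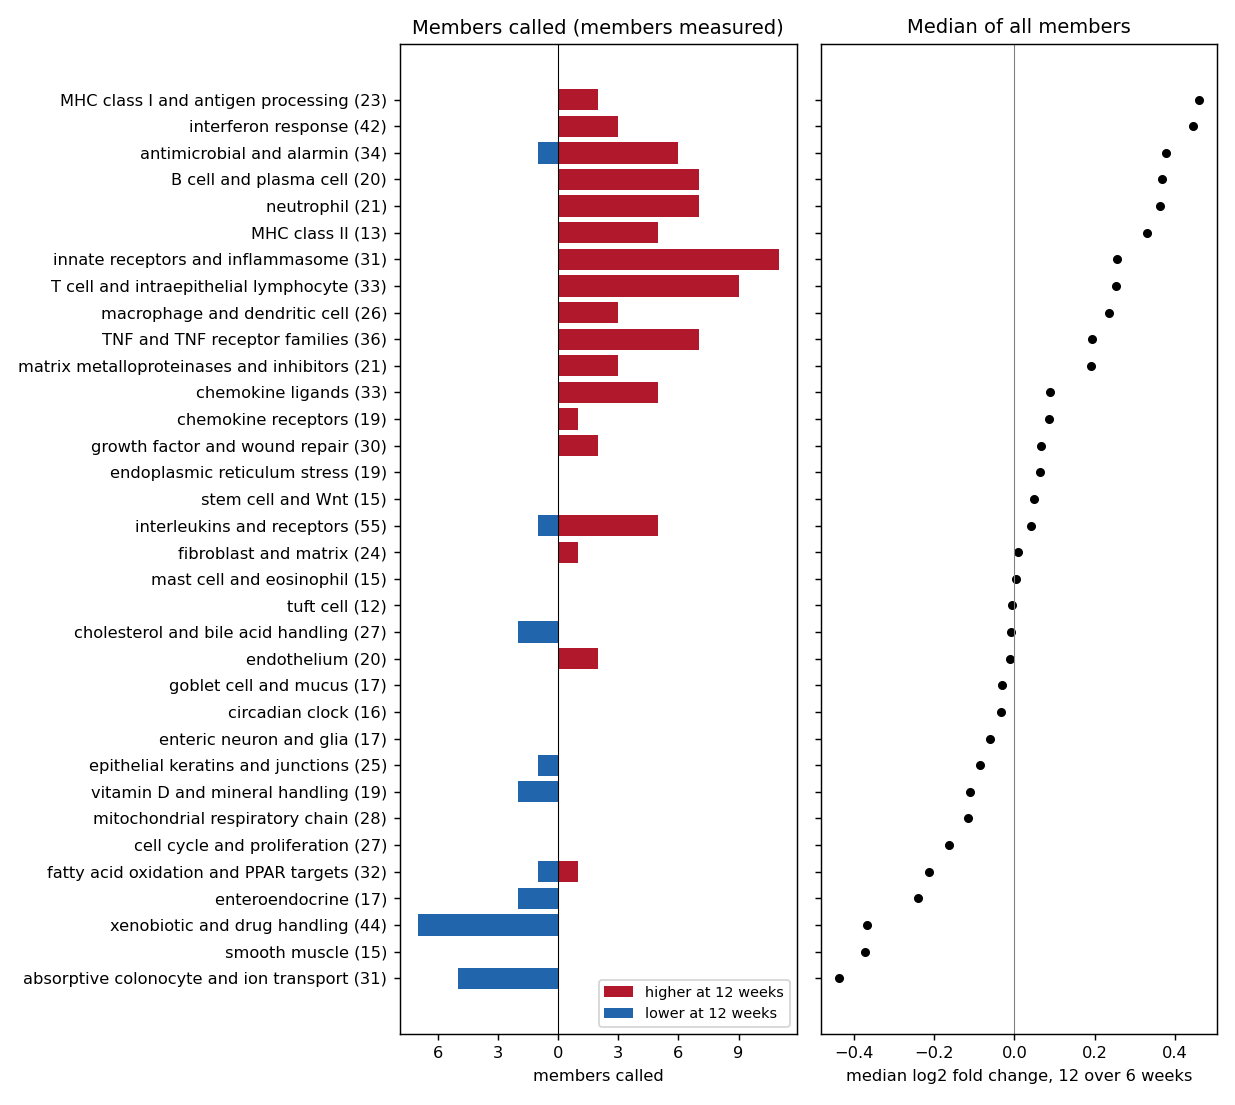
Gene lists of the comparison, with the number of measured members in brackets. The left panel counts members called higher (to the right of 0) and lower (to the left) at 12 weeks, and the right panel gives the median log2 fold change of all measured members, from -0.44 for absorptive and ion transport genes to 0.46 for MHC class I and antigen processing.

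Several other lists held no called gene, which at 1.28% called over all genes sets none of them apart. None of 17 goblet cell genes, 15 stem cell and Wnt genes, 27 cell cycle genes, 12 tuft cell genes, 28 respiratory chain genes, 16 clock genes and 19 endoplasmic reticulum stress genes was called, with median log2 changes between -0.16 and 0.06. Levels of *Tff3*, a goblet cell peptide, were 0.25, 0.52 and 0.93 at 6 weeks and 0.10, 0.22 and 0.98 at 12 weeks. *Birc5*, a mitotic gene, was at -0.77, 0.84 and 1.45 against -0.20, 0.40 and 0.82. For both genes the ages overlapped almost wholly. The clock output gene *Dbp* had a larger but scattered difference, at -1.33, -0.71 and 0.92 at 6 weeks and -2.78, -2.33 and -1.28 at 12 weeks (log2 fold change -1.79, adjusted p = 0.25), and *Dbp* was called with only the Il10-/- arrays fitted (adjusted p = 0.049). In the enteroendocrine list, 2 of 17 genes fell, against 0.244% of all genes. They were the secretory granule gene *Chga* (log2 fold change -1.67, adjusted p = 0.031) and the hormone gene *Sct*, which encodes secretin (-1.19, adjusted p = 0.017). The call of *Chga* was lost without any one of 8 arrays, and that of *Sct* without replicate 2 at 12 weeks, with processed signals, with only the Il10-/- arrays fitted, on slides of one scan day and without 6 week replicates 3 and 4. The defining epithelial markers *Epcam*, *Krt8*, *Krt20*, *Vil1*, *Cdh1* and *Muc2* were above background on 5 or 6 of 6 arrays at each age, and their log2 changes lay between -0.26 and 0.09, none of them called.

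Antigen presentation by MHC class II normally belongs to professional antigen presenting cells, but epithelium takes it on under interferon-gamma through the transactivator CIITA. Of 13 measured genes of this list, 5 rose and none fell (median log2 change 0.33). *Ciita* had levels of -0.18, 0.10 and 0.71 at 6 weeks, when 1 of 6 arrays was above background, and 0.98, 1.26 and 1.85 at 12 weeks, when all were. Its groups did not overlap (log2 fold change 1.17, standard error 0.14, adjusted p = 4.5e-05). *H2-DMb1*, part of the chaperone that loads peptides, rose by 1.75 from -0.75, 0.00 and 1.53 to 1.67, 1.92 and 2.39 (adjusted p = 0.0018). *H2-Eb1*, a chain of the presenting molecule, rose by 1.41 (adjusted p = 0.0014). The call of *H2-Oa*, part of an inhibitor of loading, was lost without any one of 7 arrays and with the slide as a block (log2 fold change 1.09, adjusted p = 0.028, and 0.061 with the block), and the fifth gene, *H2-Aa*, was above background on 2 of 6 arrays at 12 weeks and on none at 6 weeks. *H2-Ab1* was not called on any of its 4 probes, which disagreed, with changes from -0.16 to 1.87, and *H2-DMa* had a change of 0.19.

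Promoters of MHC class II genes are known for the conserved Y box, so the stretch before the start site is shown for the called genes held by the RefSeq table (mouse build GRCm38.p6), with the Y box letters CTGATTGG in capitals where a search of both strands found them:
*H2-Aa* (chr17:34287824-34287933, minus strand): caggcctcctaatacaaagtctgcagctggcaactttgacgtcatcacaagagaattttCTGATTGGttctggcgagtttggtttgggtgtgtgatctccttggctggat
*H2-Eb1* (chr17:34305757-34305866, plus strand): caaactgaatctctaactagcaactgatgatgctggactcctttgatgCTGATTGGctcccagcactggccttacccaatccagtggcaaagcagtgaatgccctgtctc
*H2-Oa* (chr17:34092269-34092378, plus strand): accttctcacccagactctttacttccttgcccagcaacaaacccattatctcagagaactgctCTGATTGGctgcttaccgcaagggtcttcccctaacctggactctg
*H2-DMb1* (chr17:34153081-34153190, plus strand): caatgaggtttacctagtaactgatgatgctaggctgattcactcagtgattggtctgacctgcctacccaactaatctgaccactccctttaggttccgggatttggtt

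Each stretch ends at the base before the annotated start. The Y box ended 43 bases before the start in *H2-Aa*, 54 in *H2-Eb1* and 38 in *H2-Oa*, and these exact letters were not in the window of *H2-DMb1*. Of the 9 measured list members with a promoter in the table, 4 (44.4%) held the letters within 250 bases upstream, against 4.43% of the 27025 genes of the table. *Ciita* had no entry.

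In the interferon response list, 3 of 42 genes rose and none fell, with a median log2 change of 0.45. *Ubd*, a ubiquitin-like protein induced by interferon-gamma and tumour necrosis factor, had levels of -1.88, -1.13 and -0.23 at 6 weeks and 1.84, 2.99 and 3.44 at 12 weeks (log2 fold change 3.94, 15.3-fold, standard error 0.38, adjusted p = 4.1e-06; chr17:35348129-35348188 of mm7). The chemokine gene *Cxcl9* went from -1.26, 0.40 and 1.58 to 1.42, 3.15 and 3.42, the groups overlapping only at their ends (log2 fold change 2.45, adjusted p = 0.0094), and the call was lost with normexp background, with processed signals and on slides of one scan day. The 6 week arrays spread widely on this list, with mean levels from -1.16 on replicate 1 to 0.06 on replicate 6, against -0.02 to 0.36 at 12 weeks. *Ido1*, an interferon-induced tryptophan-degrading enzyme, had levels of -1.05, -0.24 and 2.13 against 0.96, 2.05 and 2.61 and did not pass the test (adjusted p = 0.15). The number of members called depended on the fit, from 1 with the scanner's processed signals to 12 with array weights.

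The core TTCNNTTTC of interferon-response elements, searched on both strands in the 250 bases upstream, was found in 19 of 31 list members with an entry (61.3%) and in 8.18% of all genes of the table. Of the called members with an entry, *Cxcl9* held it and *Ubd* did not. It is shown for *Cxcl9* from shortly before the match to the start site (GRCm38.p6, minus strand), with the match in capitals, read on the reverse strand, 166 bases before the start:
*Cxcl9* (chr5:92328080-92328269): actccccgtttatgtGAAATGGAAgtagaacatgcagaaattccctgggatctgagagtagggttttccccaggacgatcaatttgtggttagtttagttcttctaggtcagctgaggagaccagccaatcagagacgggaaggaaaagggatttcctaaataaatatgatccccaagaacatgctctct

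MHC class I and antigen processing had the highest median of all lists, 0.46, but 2 of 23 genes passed the test, against 1.28% of all genes. *H2-M3*, which presents formylated bacterial peptides, had levels of -0.09, 0.19 and 0.90 at 6 weeks and 1.05, 1.42 and 1.84 at 12 weeks (log2 fold change 1.13, adjusted p = 0.00049). *Psmb8*, an immunoproteasome subunit, had a log2 fold change of 1.37 (adjusted p = 0.039), and this call was lost without any one of 13 of the 23 arrays and with the slide as a block (adjusted p = 0.065). The peptide transporter gene *Tap2* had levels of -0.21, 1.11 and 2.02 at 6 weeks and 0.34, 0.74 and 2.06 at 12 weeks, and was not called.

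Among 55 interleukin genes and receptors, 5 rose and 1 fell. Besides *Il1b*, the largest rise was that of *Ifng*, the interferon of T and NK cells, from -0.39, 0.00 and 2.10 to 1.44, 2.58 and 3.30 (log2 fold change 2.12, adjusted p = 0.0016). At 6 weeks 2 of 6 arrays were above background for *Ifng*. The receptor genes *Csf2rb*, *Il18r1* and *Osmr* rose as well. *Il18*, an epithelial cytokine processed by the inflammasome, was the gene that fell, from -0.16, 0.96 and 1.92 to -0.84, -0.70 and -0.42 (log2 fold change -1.58, adjusted p = 0.0053), with 3 of 6 arrays above background at 12 weeks.

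Of 33 chemokine ligand genes, 5 rose (*Ccl2*, *Ccl3*, *Ccl5*, *Cxcl9* and *Cxcl16*), and of 19 receptor genes 1 rose, *Cxcr6*, the receptor of *Cxcl16* on T cells (log2 fold change 1.28, adjusted p = 0.0092). The call of *Cxcr6* was lost with processed signals, with only the Il10-/- arrays fitted, on slides of one scan day and without 6 week replicates 3 and 4. The monocyte attractant gene *Ccl2* went from -0.03, 0.64 and 0.76 to 1.16, 1.78 and 2.92 (log2 fold change 1.32, adjusted p = 0.00071). Calls of *Ccl5* and *Cxcl16* were lost without any one of 6 and 7 arrays, and that of *Cxcl16* with the slide as a block (adjusted p = 0.053). The neutrophil attractant gene *Cxcl5* was above background on 3 of 6 arrays at 12 weeks, with levels from 0.17 to 3.66, and on none at 6 weeks, and did not pass the test (adjusted p = 0.12).

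In the TNF and TNF receptor families, 7 of 36 genes rose and none fell, but only 2 were called with processed signals. *Tnfrsf1b*, the second TNF receptor, went from 0.22, 0.69 and 0.93 to 1.39, 1.79 and 2.54 (log2 fold change 1.20, adjusted p = 0.0033). The lymphotoxin gene *Ltb* and the T cell costimulatory receptor gene *Tnfrsf4* both had log2 fold changes of 1.19 (adjusted p = 0.0082 and 0.0086). The call of the adaptor gene *Traf1* was lost without any one of 7 arrays.

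Innate receptors formed the list with most calls in the main fit, by number and not by share. Of 31 genes, 11 rose and none fell, and the mean level was 0.72 to 1.26 at 12 weeks against 0.30 to 0.54 at 6 weeks. *Clec7a* (Dectin-1), which binds fungal glucans, went from -0.08, 0.42 and 0.80 to 1.35, 2.67 and 3.40 (log2 fold change 2.03, adjusted p = 0.00054). *Fpr2*, a receptor for formylated peptides, was above background on no array at 6 weeks and was at least 2.77-fold higher at 12 weeks (adjusted p = 0.00015). The immunoglobulin receptor gene *Fcgr4* rose by 1.44 (adjusted p = 0.0043), a call lost under the same 3 alternatives as that of *Cxcl9*. Most members called here, among them *Tyrobp*, *Fcer1g*, *Fcgr1* and *Fpr1*, are best known from myeloid cells.

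Markers of other cell types moved with these results. In the neutrophil list 7 of 21 genes rose and none fell, and the number of its members above background was 8 to 14 on the 12 week arrays and 3 to 5 on the 6 week arrays. Its mean level was 0.37 to 1.30 against -0.16 to 0.05. The myeloperoxidase gene *Mpo*, a defining neutrophil marker, had a log2 change of -0.02 and was above background on 4 of 6 arrays at each age. The neutrophil gene *Retnlg* was at least 2.90-fold higher at 12 weeks (adjusted p = 0.0046), with replicate 6 the highest at 4.02, and the lectin gene *Clec4d* at least 3.58-fold (adjusted p = 8.6e-06). The call of *Retnlg* was lost with only the Il10-/- arrays fitted.

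Among 33 T cell and intraepithelial lymphocyte genes, 9 rose and none fell, and the mean level was 0.38 to 0.80 at 12 weeks against -0.09 to 0.21 at 6 weeks. *Icos*, a costimulatory receptor of activated T cells, went from -0.03, 0.18 and 1.32 to 2.26, 2.85 and 3.35 (log2 fold change 2.53, standard error 0.30, adjusted p = 4.2e-05). The *Cd8b1* chain of the CD8 coreceptor and the cytotoxic granule gene *Gzmb* had log2 fold changes of 1.75 and 1.47 (adjusted p = 0.027 and 0.0032). The call of *Cd8b1* was lost without any one of 5 arrays. At 6 weeks *Cd8b1* was above background on 2 of 6 arrays and *Gzmb* on 1 of 6. *Cd3e* was above background on 3 of 6 arrays at 12 weeks and 2 of 6 at 6 weeks, with a change of 0.07.

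In the B cell and plasma cell list 7 of 20 genes rose and none fell. The mean level was 0.19 to 1.14 at 12 weeks, highest on replicate 5, and -0.33 to -0.07 at 6 weeks. *Pou2af1*, a coactivator of immunoglobulin transcription, went from -0.17, 0.43 and 1.27 to 1.92, 2.45 and 3.64 (log2 fold change 2.14, adjusted p = 0.00023). The B cell receptor subunit gene *Cd79b* and the immunoglobulin joining chain gene *Jchain* rose by 1.87 and 1.74 (adjusted p = 0.0018 and 0.0030). *Cd79a* was above background on none of the 12 arrays. A probe that the files name *Ighg*, for immunoglobulin gamma heavy chain, had levels of -2.33, -1.08 and -0.25 at 6 weeks and 1.77, 3.36 and 4.88 at 12 weeks (log2 fold change 4.43, adjusted p = 3.8e-05). It names no current gene, so it lies outside the rule for named genes and was chosen after its values were seen, and its signal cannot be split between near-identical genes.

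Of 26 macrophage and dendritic cell genes 3 rose, and here and for the lists that follow the share over all genes was 1.03%. Of the 3, *Itgax*, the CD11c integrin chain, had a log2 fold change of 1.32 (adjusted p = 0.011). The mean level overlapped between the ages, at 0.43 to 1.07 against 0.13 to 0.50, with replicate 4 the highest at 6 weeks. *Mpeg1* and *Fcgr1*, the others, lost their calls without any one of 14 and 3 of the 23 arrays, *Mpeg1* also with the slide as a block (adjusted p = 0.069), and *Csf1r*, *Adgre1* and *Cd68* were not called. In the endothelial list 2 of 20 genes rose, the leukocyte adhesion molecules *Vcam1* (log2 fold change 1.6, adjusted p = 0.00031) and *Icam1* (1.34, adjusted p = 0.00026). Of 24 fibroblast and matrix genes 1 rose, *Thy1*, which T cells carry too (log2 fold change 1.33, adjusted p = 0.015, lost without replicate 6 at 6 weeks). None of 15 mast cell and eosinophil genes, 15 smooth muscle genes and 17 neuron and glia genes was called. The mean level of the smooth muscle list was -1.90 to -0.51 at 12 weeks and -1.01 to -0.30 at 6 weeks. All 15 smooth muscle genes had a log2 change below 0, from -1.62 to -0.03 with a median of -0.37, and 3 of them were called lower with array weights. The part of leukocytes in the rises above, and of any difference in the cut of the tissue, was not tested.

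**Figure D3:**
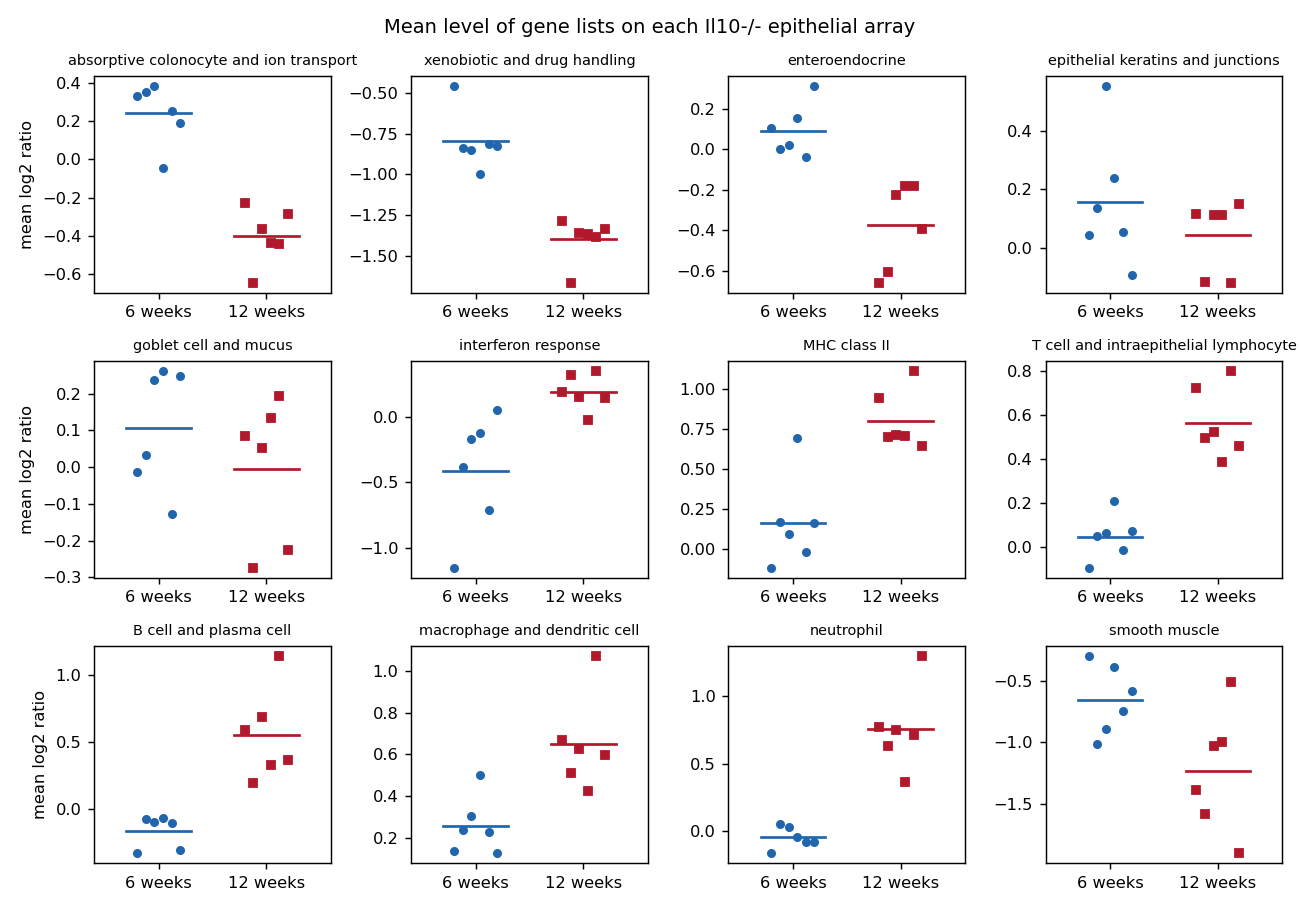
Mean log2 ratio over the measured members of 12 gene lists on each Il10-/- epithelial array (circles, 6 weeks; squares, 12 weeks; lines, group means), with a separate y axis in each panel. The lists of absorptive, xenobiotic and enteroendocrine genes lay lower on every 12 week array, those of T cells, B cells and neutrophils lay higher, and keratin and junction, goblet cell, interferon, MHC class II, macrophage and smooth muscle levels overlapped.

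In C57BL/6J mice no gene was called between the same ages (limma, smallest adjusted p = 0.97, with 1550 genes at an unadjusted p below 0.05). The arrays were 5 at 12 weeks, since a repeat array of 1 mouse was left out, and 6 at 6 weeks. The genes called in Il10-/- mice were chosen by their change there, which by itself makes their medians in these mice large. The median change of the 283 genes that rose in Il10-/- mice was 1.17 there and 0.05 in C57BL/6J mice, and that of the 67 that fell was -1.32 and 0.12. The difference between the 2 changes itself passed the thresholds for 76 genes (0.277% of those tested), 57 with the more positive and 19 with the more negative change in Il10-/- mice. Of the 350 genes called with age in Il10-/- mice, 75 (21.4%) were among these 76. This test of the difference holds the same 12 Il10-/- arrays as the age comparison. Single arrays moved this count of 76. Leaving out C57BL/6J replicate 2 at 12 weeks gave 46, leaving out Il10-/- replicate 5 or 1 at 6 weeks gave 46 or 50, and leaving out other arrays gave up to 112. Without the C57BL/6J array of 12.4% of spots above background it was 111.

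*S100a9* and *Slpi* were among the genes whose change differed between strains. *S100a9* lay between -1.64 and -0.85 in 12 week old C57BL/6J mice and between -2.10 and 0.77 at 6 weeks, a log2 change of -0.50 against 4.56 in Il10-/- mice (adjusted p of the difference 0.00068). It was above background on only 1 of 5 C57BL/6J arrays at 12 weeks and 1 of 6 at 6 weeks, so the size of this difference is not a measured one. *Slpi* had changes of 0.85 in C57BL/6J and 4.10 in Il10-/- mice (adjusted p of the difference 0.018). Among the falls, *Aadac* had the difference with the smallest p, with changes of 0.29 and -2.76 (adjusted p = 0.00019), and *Hao2*, *St3gal5*, *Fabp2*, *Ugt2b5*, *Sult1c2*, *Cldn8* and *Wfdc2* differed too. For *S100g*, which lay between 0.86 and 3.27 in C57BL/6J mice at 6 weeks and 0.89 and 1.80 at 12 weeks, the difference did not pass the test (changes of -0.46 and -3.48, adjusted p = 0.28), nor did it for *Il1b* (adjusted p = 0.053) and *Cyp2c55* (0.065). Of the MHC class II genes, only *Ciita* differed (changes of -0.09 and 1.17, adjusted p = 0.0058), and its probe was above background on 0 of 5 and 1 of 6 C57BL/6J arrays at 12 and 6 weeks.

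**Figure D4:**
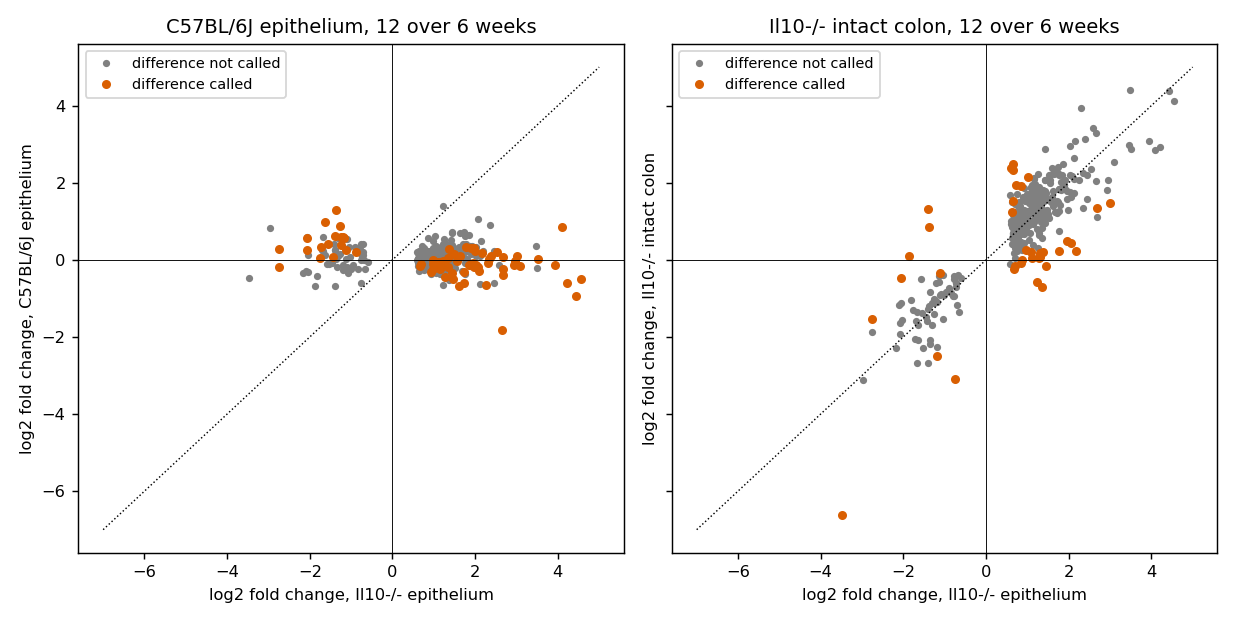
Log2 fold change from 6 to 12 weeks of the 350 genes called in Il10-/- epithelium (x axis) against the change of the same genes in C57BL/6J epithelium (left) and in intact colon of Il10-/- mice (right). Each point is 1 gene, orange where the difference between the 2 changes was itself called, and the dotted line marks equal changes. In C57BL/6J mice the points lie about 0 (median 0.05 for genes that rose), and in intact colon most lie on the same side of 0 (median 1.35).

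The same age comparison in intact colon of Il10-/- mice called 1151 genes higher (4.20%) and 1146 lower (4.18%). Of the 283 genes that rose in epithelium, 241 (85.2%) were called higher in intact colon, and of the 67 that fell, 54 (80.6%) were called lower. The labels do not tie an epithelial array to the intact colon of the same mouse, and intact colon itself contains the epithelium. In opposite directions were *Sult4a1*, a cytosolic sulfotransferase (1.35 in epithelium and -0.71 in intact colon), and *Aqp8* (-1.41 and 1.31).

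The difference between the tissues' changes passed the thresholds for 878 genes (3.20%), but 607 of the 983 probes behind them were above background on no Il10-/- epithelial array. A stricter filter on dim probes in both tissues kept 13581 probes. It also dropped probes above background on a few epithelial arrays, such as that of *H2-Aa*. That probe was above background on 2 of 6 arrays at 12 weeks, and its tissue difference passed over all probes (limma, adjusted p = 3.6e-05). Among the probes kept, 84 genes differed. The change was the more positive in epithelium for 25 of them, of which 15 rose in epithelium and 8 fell in intact colon, and the more negative for 59, of which 56 rose in intact colon. Among these 59 were *Tnf* (0.17 in epithelium and 1.58 in intact colon, adjusted p = 0.022; above background on 5 of 6 epithelial arrays at 12 weeks and 2 of 6 at 6 weeks), *Aqp8*, and the class II genes *H2-Ab1*, *H2-DMa* and *H2-DMb1*, of which *H2-Ab1* and *H2-DMb1* passed only on a probe that no 6 week epithelial array showed above background. Among the 25 were *Slc27a1*, a fatty acid transporter (2.18 and 0.23, adjusted p = 0.0010), *Klk4*, a secreted serine protease (1.96 and 0.49, adjusted p = 0.00013), and 1 of the probes for the tumour suppressor gene *Trp53* (1.76 and 0.23, adjusted p = 0.00029, whereas its other probe had a change of 0.25 in epithelium). These 3 genes were chosen after their values were seen. Levels of *Klk4* in epithelium were 0.33, 0.57 and 0.80 at 6 weeks and 1.87, 2.63 and 3.22 at 12 weeks, apart on all arrays.

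Of the leading genes, *S100g* fell less in epithelium than in intact colon (-3.48 and -6.63, adjusted p = 0.013 over all probes and 0.090 over probes above background), and *St3gal5* fell in epithelium but was not called in intact colon (-2.06 and -0.46, adjusted p = 0.0047 and 0.017). *Chil1* had the larger fitted change in epithelium (3.01 and 1.48; above background there on 1 of 6 arrays at 6 weeks), with an adjusted p of 0.014 over all probes and 0.14 over those above background. *Nos2*, the inducible nitric oxide synthase gene, was above background on no Il10-/- epithelial array, with a change of 0.02, and rose by 1.48 in intact colon.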

How the data were processed

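Groups and replicate numbers were taken from the sample labels, and p-values measure the spread between these samples. Epithelial RNA of 12 Il10-/- mice (6 of 12 and 6 of 6 weeks) and the comparison groups were hybridized as Cy3 targets to Agilent 4x44K two-colour arrays against a Cy5 reference pool, without dye swap. The authors deposited spot intensity values on a linear scale, as Feature Extraction wrote them (version 10.10.1.1 for epithelium and 9.5.1.1 for intact colon, per the file headers), and a table of log2 ratios of Cy5 over Cy3 that they had loess normalized within arrays without background subtraction. The submitters' processing notes name limma and R 2.14.1. Values here are the deposited log2 ratios with the sign turned, so that higher means more in the sample. Column medians of the deposited table lay near 0, and a loess computed anew from the intensities correlated with it at r of at least 0.9976 over probes on every epithelial array.

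Control spots were left out and duplicate spots averaged, giving 41174 probes. Probes were named through accession (27584), current symbol (4125) or older symbol (1704) in RefSeq tables for GRCm38.p6, and otherwise as the files name them (7761), for 27436 genes in all. Probe positions are those of the intact colon files (mm7). limma 3.58.1 (R 4.3.3) was fitted to the means of the 4 epithelial groups (23 arrays, a repeat array of 1 C57BL/6J mouse left out). The thresholds for a call were a fold change above 1.5 with a Benjamini-Hochberg FDR below 0.05, and a gene was called when any of its probes was. A gene's values are those of its brightest called probe. The tissue difference used all 8 groups (47 arrays) with array weights per tissue. A probe above background on no array of a group was given as a bound. The share of spots above background was compared by an exact permutation test. The fit was tested on simulated data.

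Named genes were the 10 largest rises and falls among called genes whose groups did not overlap (probes naming no current gene skipped), up to 4 called members of each list (the 2 brightest where none was called), the 6 genes the study measured by PCR, its reference *Canx*, and *Il10*. All other genes given in the text, among them the defining markers of cell types, *Reg3b*, *Duox2*, *Ido1*, *Tnf*, *Nos2*, *Aqp8* and *Sult4a1*, lie outside this rule and were chosen after their values were seen. Values of some genes under this rule are not reported here. Members and lists were chosen with earlier results of these data known, and lists were described by counts and medians, without a test. Alternatives changed the normalization, background, filter, weights, block and arrays. No block was used in the values reported, and the slide as a block was an alternative.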

Additional observations from a re-analysis of the deposited data

Results flagged for a closer look

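In 19 of 192 groups of 6 arrays examined, over named genes and the share of spots above background, 1 array stood apart from the other 5 by Dixon's criterion, where chance gives about 1 in 20. At 6 weeks, 8 of these were replicate 4. Its levels were 1.5 for *Plcg2*, 1.70 for *H2-Oa*, 1.21 for *Cxcl16*, 1.74 for *Traf1*, 2.14 for *Itgax* and 0.88 for *Fcgr1*, each above the other 5 arrays, and -1.44 for *Clock* and -2.07 for the PCR reference gene *Canx*, both below them. Replicate 3 at 6 weeks had 0.16 for *Rnf43*, below the other 5, and 0.48 for *Sprr2h* and 1.32 for *Icos*, above them. Replicate 6 at 6 weeks was highest for *Mmp3* (0.0135) and *S100a8* (-0.0715), and replicate 1 for *Cyp2c55* (3.67). At 12 weeks, replicate 1 stood apart for *Tff3* (0.98) and *Psmb8* (0.66), replicate 4 for *Icam1* (0.60), replicate 5 for *Maob* (-3.04) and replicate 6 for *Il10* (0.43).

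For 25 named genes the change with age differed between Il10-/- and C57BL/6J epithelium by limma's interaction test, as it did for 76 (0.277%) of all genes. Of the 97 named genes, 73 had been called with age on the same Il10-/- arrays, so a larger share among them is partly fixed by that choice. The change was more positive in Il10-/- mice by 5.06 for *S100a9*, 4.82 for *Mmp10*, 4.07 for *Ubd*, 3.50 for *Acod1*, 3.25 for *Slpi*, 3.23 for *Chil3*, 3.08 for *Hp*, 2.99 for *Clec4e*, 2.91 for *Chil1*, 2.39 for *S100a8*, 2.37 for *Sprr2h*, 2.32 for *Icos*, 2.16 for *Clec7a*, 2.02 for *Fpr2*, 1.97 for *Clec4d*, 1.28 for *Icam1* and 1.26 for *Ciita* on the log2 scale. It was more negative there, with differences of -3.04 for *Aadac*, -2.63 for *Hao2*, -2.61 for *Sult1c2*, -2.58 for *Wfdc2*, -2.32 for *St3gal5*, -2.14 for *Cldn8*, -1.96 for *Fabp2* and -1.81 for *Ugt2b5*. *Mmp10*, *Hp*, *Clec4e*, *S100a8*, *Fpr2* and *Clec4d* were above background on no Il10-/- array at 6 weeks, *Acod1*, *Chil1* and *Sprr2h* on no C57BL/6J array, and *Ciita* on 0 of 5 C57BL/6J arrays at 12 weeks and 1 of 6 at 6 weeks. The differences of these genes are fitted values against undetected groups and not measured sizes. *S100a9* and *Chil3* were above background on only 1 C57BL/6J array at each age. Adjusted p lay between 1.9e-05 for *Acod1* and 0.050 for *Icam1*. For 6 named genes the change differed between epithelium and intact colon of Il10-/- mice over all probes, by 3.15 for *S100g*, 2.33 for *Slc30a10*, 1.54 for *Chil1*, 1.37 for *Ppara*, -1.23 for *Aadac* and -1.60 for *St3gal5*. The share over all genes was 3.20%. Among probes above background, *St3gal5* passed the threshold (adjusted p = 0.017), *S100g* (0.090), *Chil1* (0.14) and *Aadac* (0.28) did not, and *Slc30a10* and *Ppara* were too dim to be kept.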

How the results depend on the processing

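The count of 350 genes was 558 with array weights (394 higher, 164 lower, 341 of the main genes among them), 371 with the slide as a replicate block (297 and 74), 237 with the scanner's processed signals (190 and 47, with 169 of the main genes among them) and, chosen after seeing the data, 234 on slides of one scan day (200 and 34). The other alternatives gave 337 to 421, and 280 to 418 came with each array left out in turn. The lowest came without Il10-/- replicate 1 at 6 weeks. Deviations of same-numbered arrays, which share a slide, correlated from -0.06 to 0.57, positive in 5 of 6 pairs (mean 0.24, against -0.05 over the 30 pairs of different numbers) and above 0.1 in 4, and 2 of the 6 arrays at 12 weeks correlated best with their own number. The samples were not treated as paired because not every pair exceeded 0.1, a rule that cannot exclude an effect of the slide. The fit with the slide as a block is therefore given as an alternative. The replicate block changed the interaction count to 69 and the tissue count to 927. The 76 interaction genes became 44 with processed signals (22 of the 76 among them), 133 with a filter on dim probes, 184 with array weights and 26 on slides of one scan day, and 46 to 112 with an array left out. The 878 genes differing between tissues became 84 with the filter on dim probes and 726 to 1108 with an array left out. The cause of the differences between fits was not tested, except that the filter tested 14270 probes of the epithelial fit in place of 41174. The difference in the share of spots above background was 0.33 to 2.61 points with an array left out.

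Of the 73 called named genes, 37 were called under every alternative, among them *S100a9*, *Slpi*, *Mmp10*, *Ubd*, *Acod1*, *S100g*, *Aadac*, *Wfdc2* and *Ciita*. Over 2555 values of called named genes, 2386 kept the call, 169 lost it and none turned direction. The block ended the calls of *Cxcl16*, *H2-Oa*, *Mpeg1* and *Psmb8*. Leaving out single arrays ended those of 15 genes, *Mpeg1* (14 arrays) and *Psmb8* (13) most often. Processed signals ended 28 of the calls, among them *Anxa3*, *Car2*, *Ccl5*, *Cd8b1*, *Chga*, *Chil3*, *Cldn8*, *Csf2rb*, *Cxcl9*, *Cxcr6*, *Fcgr1*, *Fcgr4*, *H2-M3*, *Icam1*, *Itgax*, *Jchain*, *Sct*, *Slc30a10*, *Slc51a*, *Slc9a3*, *Tnfrsf1b*, *Tnfrsf4* and *Traf1*. Normexp background ended 4, among them *Cxcl9*, *Fcgr4* and *Mpeg1*. Slides of one scan day ended 20 (*Adam8*, *Angptl4*, *Anxa3*, *Ccl5*, *Cd8b1*, *Chga*, *Cldn8*, *Cxcl9*, *Cxcr6*, *Fcgr1*, *Fcgr4*, *H2-Oa*, *Maob*, *Mpeg1*, *Psmb8*, *Sct*, *Slc30a10*, *Slc9a3*, *Thy1* and *Traf1*), only the Il10-/- arrays 14 (*Adam8*, *Cldn8*, *Cxcl16*, *Cxcr6*, *Gsdmc*, *Gsdmc3*, *H2-Oa*, *Maob*, *Mmp3*, *Mpeg1*, *Psmb8*, *Retnlg*, *Sct* and *Traf1*) and leaving out 6 week replicates 3 and 4 ended 8 (*Anxa3*, *Chga*, *Cxcr6*, *Gsdmc*, *Gsdmc3*, *Mmp3*, *Mpeg1* and *Sct*). Of 839 values of uncalled named genes 10 became called, those of *Hdc*, *Plcg2*, *Ppara*, *Dbp* and *Myl9*. Of 1190 counts of list members, 1074 stayed within 1.5 times the main count, and the interferon list ranged from 1 to 12. The range was 2 to 10 for the TNF families, 2 to 8 for absorptive genes and for chemokine ligands, 0 to 3 for enteroendocrine genes and chemokine receptors, 1 to 7 for macrophage genes, 3 to 7 for MHC class II, 1 to 6 for metalloproteinases, 6 to 13 for innate receptors and for antimicrobial genes and 6 to 14 for xenobiotic genes. Most spots lay near background, so small changes of dim genes were not detectable.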
